A study of Homo sapiens with 9 samples.

Results

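The genes described here are 37 genes of the G2 phase and of mitosis. They were taken from a fixed list of symbols and found by symbol in the table of normalized read counts, which held 17518 genes, and all 37 listed symbols were present and tested. Expression was measured in COR-L279, an established human cell line of small cell lung cancer of the SCLC-N subtype with the genotype given as WT. The cells received the solvent DMSO, 0.5 µM JQ1 or 1.5 µM JQ1 for 24 h, and total RNA was sequenced from 3 biological replicates per group, 9 libraries in all. JQ1 inhibits BET proteins, readers of acetylated histones, by occupying their bromodomains, and the design asks how expression responds to it at each dose. Each library held between 60721187 and 88482001 reads in genes. All groups come from 1 cell line, and no group was arrested or sorted by cell cycle phase.

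The genes of G2 and mitosis are transcribed late in the cell cycle and are low in resting cells. Many of their promoters carry CCAAT boxes, bound by NF-Y, and a CHR element, through which the DREAM complex represses them in resting cells and the MYB-MuvB complex with FOXM1 activates them in G2. Their products switch on CDK1, build the spindle, attach chromosomes to it, hold anaphase back until attachment is complete and then cut the cell apart. Small cell lung cancer is a fast-dividing tumour.

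The line and the treatment matched their labels. NEUROD1, the transcription factor that defines SCLC-N, had 48243 ± 606 normalized counts in DMSO, 65250.2 ± 1567 at 0.5 µM JQ1 and 67074 ± 941 at 1.5 µM JQ1 (SD, n = 3 each). HEXIM1, a widely used marker of BET inhibition, had 1125 ± 21.7, 5487 ± 75.2 and 6976 ± 144 in the same order of groups. The leukocyte marker PTPRC was listed at 0.02 FPKM or less and the T cell marker CD3E at 0.01 or less in all 9 libraries. COL1A2 and VIM, which mark mesenchymal cells, were present at 15.2 ± 0.504 and 10.4 ± 0.291 FPKM in DMSO and were lower at both doses. COL1A2 had 5.38 ± 0.587 FPKM at 0.5 µM and 4.88 ± 0.430 at 1.5 µM, and VIM had 4.92 ± 0.407 and 5.26 ± 0.359 (SD, n = 3 each). LUM and DCN, also mesenchymal, differed between libraries of a group. LUM had 0.51, 0.47 and 0.29 FPKM in DMSO, 0.06, 0.02 and 4.0 at 0.5 µM and 2.92, 2.91 and 0.06 at 1.5 µM. DCN was listed at 0 in DMSO and in replicates 1 and 2 at 0.5 µM, at 0.41 in replicate 3 at 0.5 µM, and at 0.41, 0.4 and 0.02 at 1.5 µM. Of 11 markers of other cell types, 5 had enough reads to be tested, and none were higher and 3 lower at each dose. The summed level of the markers was 27.3 to 28.2 FPKM in DMSO, 10.5 to 16.5 at 0.5 µM and 10.5 to 14.7 at 1.5 µM. Their part in the results was not tested.

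A single library stood apart in these genes. In 0.5 µM replicate 2, 33 of the 37 genes (89.2%) were at the highest value of the 3 libraries at 0.5 µM, against 42.6% of all genes. The median log2 difference of the 37 genes from the DMSO mean was 0.31 in that library, 0.18 in 0.5 µM replicate 1 and 0.11 in replicate 3, and 0.21, 0.22 and 0.21 in the 1.5 µM libraries. It was also the shallowest library of the 9. Results at 0.5 µM are therefore given with and without it wherever it decides a call. By normalized counts, H19 and SLC2A3 RNA was high in a further 3 libraries, namely replicate 3 at 0.5 µM and replicates 1 and 2 at 1.5 µM. These same libraries were high in LUM and DCN, and results without them are given as well. Leaving them out keeps only replicate 3 at 1.5 µM, so for that dose this fit is given by effect size. The cause of either pattern was not tested.

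**Figure D1:**
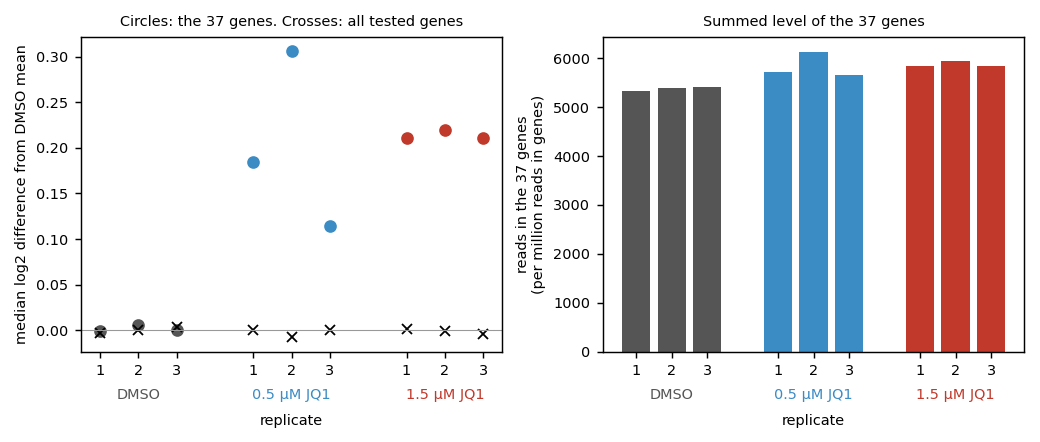
Left, median log2 difference from the mean of the 3 DMSO libraries in each library, over the 37 genes (circles) and over all 17514 tested genes (crosses). Right, reads in the 37 genes of every 1000000 reads in genes, from 0. Replicate 2 at 0.5 µM has the highest value in both panels, and the 1.5 µM libraries lie between 0.21 and 0.22 on the left.

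Both doses of JQ1 moved the G2 and mitosis genes by small amounts and in both directions. At 0.5 µM, 23 of the 37 genes were higher than in DMSO, 7 were lower and 7 did not pass the test (limma, adjusted p under 0.05 over all genes). Of all 17514 genes tested, 35.3% were higher and 34.7% lower at this dose, 70.0% together. At 1.5 µM, 24 of the genes were higher, 10 were lower and 3 did not pass, against 36.9% higher and 36.2% lower among all genes, 73.1% together. The median log2 fold change of the 37 genes was 0.19 at 0.5 µM and 0.21 at 1.5 µM, and that of all genes -0.010 and -0.0030. The 2 comparisons share their DMSO libraries.

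No member reached a 2-fold change. All genes did so in 15.8% of cases at 0.5 µM and in 19.5% at 1.5 µM. The median size of the log2 fold change, whatever its sign, was 0.22 and 0.27 for the 37 genes at the 2 doses and 0.38 and 0.43 for all genes. The 2 groups of libraries were fully apart for 31 of the 37 genes at 0.5 µM (24 above and 7 below DMSO), where 72.6% of all genes were apart (36.2% above and 36.4% below). At 1.5 µM this held for 35 genes (25 above and 10 below), against 81.7% of all genes (40.7% above and 41.0% below). Without 0.5 µM replicate 2, 23 genes were higher and 10 lower at 0.5 µM, against 36.9% higher and 36.4% lower among all genes. Without the 3 libraries high in H19 and SLC2A3, 23 were higher and 6 lower at 0.5 µM (all genes 32.1% higher and 31.8% lower). Only replicate 3 was then left at 1.5 µM, where the median log2 fold change of the 37 genes was 0.21.

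**Figure D2:**
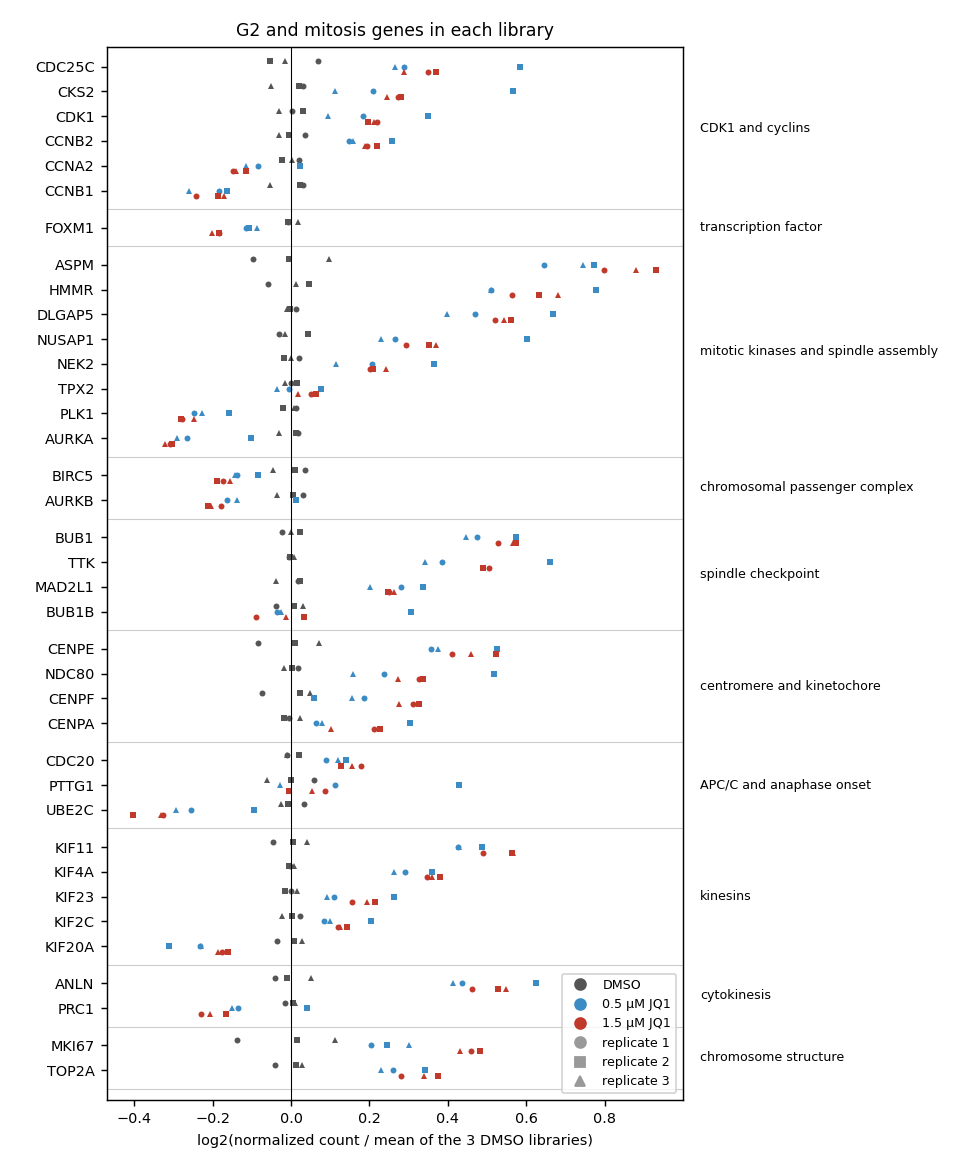
Each point is 1 library, placed by the log2 ratio of its normalized count to the mean of the 3 DMSO libraries, for the 37 genes grouped by role. Grey is DMSO, blue 0.5 µM JQ1 and red 1.5 µM JQ1, and the symbol gives the replicate. ASPM and HMMR lie farthest to the right and UBE2C farthest to the left, and 0.5 µM replicate 2 (blue squares) is often to the right of the other blue points.

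Summed over the 37 genes, the reads came to 5379 ± 44.2 of every 1000000 reads in genes in DMSO, 5835 ± 260 at 0.5 µM and 5878 ± 58.5 at 1.5 µM (SD, n = 3 each). All libraries at 1.5 µM and all at 0.5 µM lay above all DMSO libraries. A sum of reads gives more weight to long transcripts. In DMSO, TOP2A, which rose, had 35740 normalized counts and 94.2 FPKM, and UBE2C, which fell, had 12381 and 264. The sum is therefore not a sum of transcript levels. RNA of whole cultures was measured, so more or fewer cells in G2 and mitosis and more or less RNA per cell in those phases cannot be told apart.

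The promoters of the members show what the class shares and where its members differ. Windows from 250 bases before to 50 bases after the annotated start were available from RefSeq (GRCh38.p14) for 31 of the 37 genes, the others being AURKA, BIRC5, FOXM1, TPX2, TTK and UBE2C. The CHR letters TTTGAA or TTCGAA, on either strand (TTCGAA reads the same on both), were found for 23 of the 31 genes (74.2%), against 19.5% of the 27305 genes in the table. CCAAT, on either strand, was found for 26 genes (83.9%), against 39.7%, and both were found for 20 (64.5%), against 9.02%. A gene was counted when any of its windows held the letters, and 4 of the 31 genes have more than 1 window. Taken window by window, the 35116 windows of the table held the CHR letters in 16.4% of cases, CCAAT in 34.6% and both in 6.38%. Of the 24 genes that rose at 1.5 µM, 23 have a window, and 20 of these held the CHR letters and 19 CCAAT. Of the 10 that fell only 6 have one (all but AURKA, BIRC5, FOXM1 and UBE2C), and 2 of the 6 held the CHR letters and 6 CCAAT. A match is a description of the letters and not a test of binding. Only these 2 forms of the CHR element were searched, so a window without them is not shown to lack the element.

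Of these windows, 5 are printed here, for the 2 genes with the largest rises, for both B-type cyclins, which moved in opposite directions, and for PLK1, which fell and yet holds both motifs. Each is the 120 bases before the start, 5′ to 3′ on the strand of the gene, with CHR and CCAAT letters of either strand in capitals. In HMMR a CCAAT and its reverse form ATTGG overlap, and its CHR letters occur as 2 adjoining copies. CCNB1 has CCAAT boxes and no CHR letters in its window.
HMMR: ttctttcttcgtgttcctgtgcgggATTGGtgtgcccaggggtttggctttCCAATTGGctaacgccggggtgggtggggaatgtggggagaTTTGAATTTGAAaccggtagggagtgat
ASPM: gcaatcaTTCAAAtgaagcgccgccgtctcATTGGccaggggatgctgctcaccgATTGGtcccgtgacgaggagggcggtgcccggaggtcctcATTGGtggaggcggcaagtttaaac
CCNB2: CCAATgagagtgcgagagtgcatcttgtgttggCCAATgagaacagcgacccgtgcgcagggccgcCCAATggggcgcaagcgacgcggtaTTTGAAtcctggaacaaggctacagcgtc
CCNB1: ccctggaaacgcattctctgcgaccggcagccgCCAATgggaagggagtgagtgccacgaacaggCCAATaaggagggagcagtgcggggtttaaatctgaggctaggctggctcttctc
PLK1: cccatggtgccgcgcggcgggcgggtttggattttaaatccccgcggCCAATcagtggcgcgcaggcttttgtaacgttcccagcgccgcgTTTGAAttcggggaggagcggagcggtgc
Their positions in GRCh38.p14 are chr5:163460512-163460631, plus strand for HMMR, chr1:197146670-197146789, minus strand for ASPM, chr15:59105026-59105145, plus strand for CCNB2, chr5:69167030-69167149, plus strand for CCNB1 and chr16:23678769-23678888, plus strand for PLK1. The CHR letters nearest to the start began 22 bases before it in HMMR, 113 in ASPM, 29 in CCNB2 and 29 in PLK1. In ASPM they were on the opposite strand.

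CDK1 and its cyclins, the kinase whose activity starts mitosis, did not move as 1 group. CDK1 (ENSG00000170312.11) had 7356, 7500.5 and 7194 normalized counts with DMSO, 8349, 9364 and 7845 at 0.5 µM JQ1 and 8559.9, 8422 and 8506 at 1.5 µM JQ1. All JQ1 libraries lay above all DMSO libraries, and the highest was 0.5 µM replicate 2. Its log2 fold change was 0.21 ± 0.054 (SE, limma adjusted p = 0.00564) at 0.5 µM and 0.21 ± 0.054 (SE, limma adjusted p = 0.00519) at 1.5 µM. On FPKM values neither call held (0.12 at both doses, adjusted p = 0.128 and 0.106). The median log2 fold change of all genes on FPKM values was -0.044 at 0.5 µM and -0.055 at 1.5 µM.

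Of the B-type cyclins, the activating partners of CDK1 in mitosis, one rose and the other fell. CCNB2 (ENSG00000157456.3) had 4884, 4753 and 4665 normalized counts with DMSO, 5278, 5700.3 and 5319 at 0.5 µM JQ1 and 5456, 5551 and 5434 at 1.5 µM JQ1. All JQ1 libraries were above all DMSO libraries, with log2 fold changes of 0.19 ± 0.037 (SE, limma adjusted p = 0.000939) and 0.20 ± 0.037 (SE, limma adjusted p = 0.000516) at the lower and the higher dose. CCNB1 (ENSG00000134057.10) had 11401, 11353 and 10749 normalized counts with DMSO, 9826, 9965 and 9316 at 0.5 µM JQ1 and 9438, 9819 and 9915 at 1.5 µM JQ1. Here all JQ1 libraries lay below all DMSO libraries. The log2 fold change was -0.20 ± 0.037 (SE, limma adjusted p = 0.000646) at 0.5 µM and -0.20 ± 0.037 (SE, limma adjusted p = 0.000645) at 1.5 µM. The calls of both cyclins held under each of the 21 alternatives tried.

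CCNA2, the cyclin that acts in S and G2 phase, averaged 5159.6 ± 79.4 normalized counts in DMSO, 4959.9 ± 252 at 0.5 µM JQ1 and 4699 ± 56.2 at 1.5 µM JQ1 (SD, n = 3 each). It fell at 1.5 µM (-0.13 ± 0.038 (SE, limma adjusted p = 0.00879)), with no overlap with DMSO. Without the 3 libraries high in H19 and SLC2A3, which left only replicate 3 at this dose, its log2 fold change was -0.14. At 0.5 µM it had -0.058 ± 0.038 (SE, limma adjusted p = 0.2), and the groups overlapped through replicate 2. Without that library it passed (-0.099, adjusted p = 0.00621, over all alternatives 0.000416 to 0.602). CDC25C, the phosphatase that removes the inhibitory phosphates from CDK1, and CKS2, a small subunit of the CDK1 complex, rose at both doses. The log2 fold change of CDC25C was 0.38 ± 0.08 at 0.5 µM and 0.34 ± 0.08 at 1.5 µM (limma adjusted p = 0.00151 and 0.00299). That of CKS2 was 0.30 ± 0.092 and 0.27 ± 0.092 (limma adjusted p = 0.0148 and 0.023). At 0.5 µM, replicate 2 held the highest values of both, 1400.4 and 8460.1 normalized counts. The rise of CKS2 at 1.5 µM ended without DMSO replicate 3 (0.24, adjusted p = 0.0729) or without 1.5 µM replicate 1 (0.26, 0.0582) or 2 (0.26, 0.0599), and at 0.5 µM without DMSO replicate 3 (0.27, 0.0516). On FPKM values neither gene passed at 1.5 µM (adjusted p = 0.084 for CDC25C and 0.103 for CKS2). Without the 3 H19 and SLC2A3 libraries their log2 fold changes at that dose, from replicate 3 alone, were 0.29 and 0.25.

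FOXM1 (ENSG00000111206.8), the forkhead transcription factor that activates many of the other members, fell. It had 15614, 15612 and 15894 normalized counts with DMSO, 14494, 14585 and 14798 at 0.5 µM JQ1 and 13838, 13826 and 13660.4 at 1.5 µM JQ1. The 3 groups did not overlap at any step, with DMSO highest and 1.5 µM lowest. The log2 fold change was -0.10 ± 0.025 (SE, limma adjusted p = 0.00372) at 0.5 µM and -0.19 ± 0.025 (SE, limma adjusted p = 4.62e-05) at 1.5 µM. A correction for transcript length and base composition ended the call at 0.5 µM (-0.025, adjusted p = 0.288, over all alternatives 4.78e-05 to 0.288).

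The genes of chromosome structure rose. MKI67 (ENSG00000148773.8), which encodes the Ki-67 protein of the mitotic chromosome surface and is the usual marker of dividing cells, had 19095, 21257 and 22735 normalized counts with DMSO, 24213, 24897 and 25913 at 0.5 µM JQ1 and 28898, 29350.0 and 28352 at 1.5 µM JQ1. DMSO, 0.5 µM and 1.5 µM libraries formed 3 separate ranges, with DMSO lowest. Its log2 fold change was 0.25 ± 0.055 (SE, limma adjusted p = 0.00201) at 0.5 µM and 0.46 ± 0.055 (SE, limma adjusted p = 2.31e-05) at 1.5 µM. The call at 0.5 µM did not hold on FPKM values (0.15, adjusted p = 0.0507, over all alternatives 4.38e-05 to 0.0507). TOP2A, the topoisomerase that untangles sister chromatids, averaged 35740.4 ± 873 normalized counts in DMSO, 43348 ± 1772 at 0.5 µM JQ1 and 45005 ± 1488 at 1.5 µM JQ1 (SD, n = 3 each). Neither dose overlapped with DMSO, and the log2 fold changes were 0.28 ± 0.038 and 0.33 ± 0.038 (SE, limma adjusted p = 7.7e-05 and 1.63e-05).

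Of the 4 centromere and kinetochore genes, 3 rose at 0.5 µM and 4 at 1.5 µM. CENPE (ENSG00000138778.7), the kinetochore motor that carries chromosomes to the spindle equator, had 5981, 6381 and 6655 normalized counts with DMSO, 8115, 9132 and 8226 at 0.5 µM JQ1 and 8423, 9111 and 8709 at 1.5 µM JQ1. All JQ1 libraries lay above all DMSO libraries. The log2 fold change was 0.42 ± 0.055 (SE, limma adjusted p = 4.93e-05) at 0.5 µM and 0.47 ± 0.055 (SE, limma adjusted p = 1.89e-05) at 1.5 µM. NDC80, the core microtubule receptor of the kinetochore, had 0.30 ± 0.075 and 0.31 ± 0.075 (limma adjusted p = 0.00408 and 0.0032). Without the 3 H19 and SLC2A3 libraries, with only replicate 3 left at 1.5 µM, NDC80 had 0.27 at that dose.

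CENPF (ENSG00000117724.8), a large protein of the outer kinetochore, had 26388, 28200.2 and 28733 normalized counts with DMSO, 31598, 28942 and 30933 at 0.5 µM JQ1 and 34474, 34811 and 33608 at 1.5 µM JQ1. The DMSO and 0.5 µM ranges were close to each other and did not overlap. The log2 fold change from counts was 0.13 ± 0.042 (SE, limma adjusted p = 0.0147), and on FPKM values it was -0.024 (adjusted p = 0.825). At 1.5 µM it rose by 0.31 ± 0.042 (SE, limma adjusted p = 6.39e-05). The call at 0.5 µM also ended without DMSO replicate 1 (0.098, adjusted p = 0.063) or without 0.5 µM replicate 1 (0.11, adjusted p = 0.0577), and its adjusted p over all alternatives was 4.27e-05 to 0.825. It ended likewise without the 3 H19 and SLC2A3 libraries (0.12, adjusted p = 0.0971) and with upper-quartile scaling (0.081, adjusted p = 0.126). CENPA, the histone variant that marks centromeres, had 0.15 ± 0.063 at 0.5 µM, where it did not pass (adjusted p = 0.0563), and 0.18 ± 0.063 at 1.5 µM, where it did (adjusted p = 0.0239, limma). The call of CENPA at 1.5 µM ended when any of 4 libraries was left out (DMSO replicates 1 and 2, 1.5 µM replicates 1 and 2), with adjusted p from 0.0591 to 0.0834. It ended on FPKM values (0.15, adjusted p = 0.193) and with upper-quartile scaling (0.13, adjusted p = 0.0641). Without the 3 H19 and SLC2A3 libraries the log2 fold change, from 1.5 µM replicate 3 alone, was 0.10. At 0.5 µM CENPA passed without replicate 1 (adjusted p = 0.0299) or replicate 3 (0.0369).

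The spindle checkpoint holds back anaphase until every chromosome is attached, and 3 of its 4 members rose at both doses. BUB1 (ENSG00000169679.10), the checkpoint kinase at the kinetochore, had 8852, 9140.3 and 8999.9 normalized counts with DMSO, 12505, 13406 and 12261 at 0.5 µM JQ1 and 12971, 13398 and 13315 at 1.5 µM JQ1. The JQ1 libraries were all above the DMSO libraries. In log2 terms it changed by 0.50 ± 0.036 (SE, limma adjusted p = 6.15e-07) at 0.5 µM and 0.56 ± 0.036 (SE, limma adjusted p = 1.89e-07) at 1.5 µM.

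TTK (ENSG00000112742.5), the kinase also known as MPS1 that starts checkpoint signalling, had 4695, 4701 and 4736 normalized counts with DMSO, 6156, 7454 and 5975 at 0.5 µM JQ1 and 6685, 6610.5 and 6619.9 at 1.5 µM JQ1. The groups did not overlap with DMSO, and 0.5 µM replicate 2 was the highest of all 9 libraries. TTK rose by 0.46 ± 0.068 (SE, limma adjusted p = 0.000125) at 0.5 µM and by 0.49 ± 0.068 (SE, limma adjusted p = 6.52e-05) at 1.5 µM. MAD2L1, which forms the inhibitory checkpoint complex, rose by 0.27 ± 0.037 and 0.25 ± 0.037 (limma adjusted p = 7.23e-05 and 0.000107). BUB1B, which encodes BUBR1, another part of that complex, averaged 8042 ± 198 normalized counts in DMSO, 8558 ± 1196 at 0.5 µM JQ1 and 7918 ± 332 at 1.5 µM JQ1 (SD, n = 3 each) and passed at neither dose (limma adjusted p = 0.378 and 0.804). Its value of 9939 in 0.5 µM replicate 2 was above that of all other libraries, which held 7564 to 8222.

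The mitotic kinases and the proteins that assemble the spindle also moved in both directions. ASPM, HMMR, DLGAP5, NUSAP1 and NEK2 rose at both doses, PLK1 and AURKA fell at both, and TPX2 passed at neither. ASPM (ENSG00000066279.12), a protein of the spindle poles, had 9394, 10014 and 10760.2 normalized counts with DMSO, 15722, 17181 and 16858 at 0.5 µM JQ1 and 17500.1, 19189.8 and 18498 at 1.5 µM JQ1. It had the largest change of the 37 genes at both doses, and all JQ1 libraries lay above all DMSO libraries. The estimated log2 change was 0.72 ± 0.055 (SE, limma adjusted p = 8.42e-07) at 0.5 µM, a 1.65-fold difference, and 0.87 ± 0.055 (SE, limma adjusted p = 1.42e-07) at 1.5 µM, a 1.83-fold difference.

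HMMR (ENSG00000072571.15), a microtubule-binding protein of the spindle poles that binds TPX2, had 3026, 3252 and 3177 normalized counts with DMSO, 4492, 5402 and 4491 at 0.5 µM JQ1 and 4656, 4891 and 5058 at 1.5 µM JQ1. All JQ1 libraries were again above all DMSO libraries. It rose by 0.60 ± 0.068 (SE, limma adjusted p = 1.88e-05) at 0.5 µM and by 0.63 ± 0.068 (SE, limma adjusted p = 1.09e-05) at 1.5 µM. DLGAP5, also known as HURP, which stabilizes the microtubules near chromosomes, rose by 0.51 ± 0.057 and 0.54 ± 0.057 (limma adjusted p = 1.54e-05 and 8e-06). NUSAP1, which binds microtubules around chromosomes, rose by 0.37 ± 0.081 and 0.34 ± 0.081 (0.00221 and 0.00328). NEK2, the kinase that parts the centrosomes, rose by 0.23 ± 0.055 and 0.22 ± 0.055 (0.00372 and 0.00455).

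PLK1 (ENSG00000166851.10), the polo-like kinase that drives entry into mitosis, had 15085, 14748 and 15041 normalized counts with DMSO, 12605, 13411 and 12778 at 0.5 µM JQ1 and 12326, 12304 and 12595 at 1.5 µM JQ1. All JQ1 libraries lay below all DMSO libraries. The fall was -0.21 ± 0.03 (SE, limma adjusted p = 0.000114) at 0.5 µM and -0.27 ± 0.03 (SE, limma adjusted p = 1.43e-05) at 1.5 µM. With the correction for transcript length and base composition it shrank to -0.065 (adjusted p = 0.0422) and -0.060, and the call at 1.5 µM ended (adjusted p = 0.0552).

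AURKA (ENSG00000087586.13), the centrosome kinase that activates PLK1, had 10165, 10130.2 and 9831 normalized counts with DMSO, 8351, 9348 and 8205 at 0.5 µM JQ1 and 8098, 8139.5 and 8041 at 1.5 µM JQ1. Its JQ1 libraries were all below DMSO, with 0.5 µM replicate 2 nearest to it. Its log2 fold change was -0.22 ± 0.045 (SE, limma adjusted p = 0.00138) at 0.5 µM and -0.31 ± 0.045 (SE, limma adjusted p = 0.000104) at 1.5 µM, and it kept both calls under all 21 alternatives. TPX2, the partner that activates AURKA on spindle microtubules, averaged 25182 ± 268 normalized counts in DMSO, 25397 ± 1023 at 0.5 µM JQ1 and 25961 ± 425 at 1.5 µM JQ1 (SD, n = 3 each). The log2 fold changes were 0.012 ± 0.033 and 0.044 ± 0.033 (limma adjusted p = 0.766 and 0.248), and their sign changed with the scaling.

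The chromosomal passenger complex corrects faulty attachments, and both of its members on the list fell at 1.5 µM. AURKB (ENSG00000178999.8), its kinase, had 6650.3, 6522 and 6346 normalized counts with DMSO, 5805, 6565 and 5909.7 at 0.5 µM JQ1 and 5752, 5618 and 5646 at 1.5 µM JQ1. The 1.5 µM libraries were below all DMSO libraries, and at 0.5 µM replicate 2 lay inside the DMSO range. On the log2 scale the change was -0.10 ± 0.045 (SE, limma adjusted p = 0.0798) at 0.5 µM and -0.20 ± 0.045 (SE, limma adjusted p = 0.00241) at 1.5 µM. Without 0.5 µM replicate 2 the lower dose passed too (-0.15, adjusted p = 0.000388, over all alternatives 3.45e-05 to 0.301). The correction for transcript length and base composition turned the sign at both doses (0.058, adjusted p = 0.0778, and 0.034, adjusted p = 0.272). Without the 3 H19 and SLC2A3 libraries, with only replicate 3 left at 1.5 µM, AURKB had -0.20 at that dose. Over all alternatives its adjusted p at 1.5 µM was 2.1e-06 to 0.272. BIRC5, or survivin, the subunit that brings the complex to chromatin, averaged 9808 ± 284 normalized counts in DMSO, 9011 ± 204 at 0.5 µM JQ1 and 8699 ± 99.8 at 1.5 µM JQ1 (SD, n = 3 each). It fell by 0.12 ± 0.031 and 0.17 ± 0.031 on the log2 scale (limma adjusted p = 0.00539 and 0.000525), and without those 3 libraries it did not pass at 0.5 µM (-0.11, adjusted p = 0.0591, over all alternatives 2.72e-05 to 0.0591).

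Among the 5 kinesins, 4 rose at both doses and 1 fell. KIF11 (ENSG00000138160.4), also known as Eg5, the motor that pushes the spindle poles apart, had 7301, 7565 and 7747 normalized counts with DMSO, 10119.7, 10559 and 10147 at 0.5 µM JQ1 and 10592, 11143 and 11169 at 1.5 µM JQ1. DMSO, 0.5 µM and 1.5 µM libraries did not overlap. KIF11 rose by 0.45 ± 0.035 (SE, limma adjusted p = 1.06e-06) at 0.5 µM and by 0.54 ± 0.035 (SE, limma adjusted p = 1.76e-07) at 1.5 µM.

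KIF4A, a chromosome-bound motor of the central spindle, rose by 0.30 ± 0.031 and 0.36 ± 0.031 (limma adjusted p = 7.14e-06 and 1.39e-06). KIF23, a motor of the centralspindlin complex of cytokinesis, rose by 0.15 ± 0.045 and 0.19 ± 0.045 (0.0105 and 0.00327). KIF2C, which depolymerizes microtubules at centromeres, rose by 0.13 ± 0.035 and 0.13 ± 0.035 (0.00737 and 0.00669). On FPKM values KIF23 passed at neither dose (adjusted p = 0.103 and 0.0813) and KIF2C did not pass at 1.5 µM (0.104). KIF23 also lost its call at 0.5 µM with the correction for transcript length and base composition (0.069, adjusted p = 0.0599, over all alternatives 0.000432 to 0.103). KIF2C lost its call at 0.5 µM with upper-quartile scaling (0.075, adjusted p = 0.0586). Without the 3 H19 and SLC2A3 libraries KIF2C had 0.12 at 1.5 µM, from replicate 3 alone. KIF20A (ENSG00000112984.7), also known as MKLP2, which moves the passenger complex to the central spindle, had 6331, 6521 and 6618 normalized counts with DMSO, 5521, 5233 and 5533 at 0.5 µM JQ1 and 5747, 5802 and 5702 at 1.5 µM JQ1. All JQ1 libraries were below DMSO, and unlike most members it was lowest in 0.5 µM replicate 2. Its log2 fold change was -0.26 ± 0.033 (SE, limma adjusted p = 4.34e-05) at 0.5 µM and -0.17 ± 0.033 (SE, limma adjusted p = 0.000656) at 1.5 µM.

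The genes of the anaphase-promoting complex (APC/C), the ubiquitin ligase that ends mitosis, and its substrate differed from each other. UBE2C (ENSG00000175063.12), the ubiquitin-conjugating enzyme of the APC/C, had 12670.0, 12312 and 12162 normalized counts with DMSO, 10368, 11598 and 10093 at 0.5 µM JQ1 and 9866, 9367 and 9831 at 1.5 µM JQ1. All JQ1 libraries lay below all DMSO libraries, and those at 1.5 µM lay below those at 0.5 µM. UBE2C had the largest fall of the 37 genes at 1.5 µM, -0.35 ± 0.049 (SE, limma adjusted p = 7.01e-05), and -0.21 ± 0.049 (SE, limma adjusted p = 0.00265) at 0.5 µM.

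CDC20 (ENSG00000117399.9), the activator of the APC/C in mitosis, had 11089, 11333 and 11099 normalized counts with DMSO, 11879, 12312 and 12133 at 0.5 µM JQ1 and 12652, 12200.4 and 12449.9 at 1.5 µM JQ1. It was higher in every JQ1 library than in every DMSO library. The change came to 0.12 ± 0.028 (SE, limma adjusted p = 0.00366) at 0.5 µM and 0.15 ± 0.028 (SE, limma adjusted p = 0.000503) at 1.5 µM, and with the correction for transcript length and base composition it came to 0.30 and 0.41. With upper-quartile scaling CDC20 did not pass at 0.5 µM (0.062, adjusted p = 0.0626, over all alternatives 3.14e-07 to 0.0626). PTTG1, or securin, the inhibitor of separase that the APC/C destroys, averaged 4851 ± 205 normalized counts in DMSO, 5511 ± 917 at 0.5 µM JQ1 and 5007 ± 162 at 1.5 µM JQ1 (SD, n = 3 each). It passed at neither dose (0.17 ± 0.093 and 0.046 ± 0.093, limma adjusted p = 0.123 and 0.669). At 0.5 µM the highest library was replicate 2, with 6531 normalized counts. PTTG1 passed at this dose without replicate 3 (0.27, adjusted p = 0.0131, over all alternatives 0.00262 to 0.424). At 1.5 µM it passed with the correction for transcript length and base composition (0.18, adjusted p = 0.0145).

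The last 2 members act in cytokinesis. ANLN (ENSG00000011426.6), anillin, the scaffold of the contractile ring, had 8323, 8498 and 8864 normalized counts with DMSO, 11585, 13205 and 11397 at 0.5 µM JQ1 and 11784, 12355 and 12519 at 1.5 µM JQ1. All JQ1 libraries were above all DMSO libraries. ANLN rose by 0.49 ± 0.054 (SE, limma adjusted p = 1.43e-05) at 0.5 µM and by 0.51 ± 0.054 (SE, limma adjusted p = 8.17e-06) at 1.5 µM. PRC1 (ENSG00000198901.9), which bundles the microtubules of the central spindle, had 18829.6, 19092 and 19134 normalized counts with DMSO, 17319.9, 19558 and 17132 at 0.5 µM JQ1 and 16207, 16962 and 16463 at 1.5 µM JQ1. The 1.5 µM libraries were the lowest, and 0.5 µM replicate 2 was the highest library of all. PRC1 fell at 1.5 µM (-0.20 ± 0.047 (SE, limma adjusted p = 0.00267)) and did not pass at 0.5 µM (-0.082 ± 0.047 (SE, limma adjusted p = 0.142)). Without replicate 2 it passed there too (-0.14, adjusted p = 0.000195, over all alternatives 7.07e-05 to 0.525).

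Between the doses few of the G2 and mitosis genes passed the test. Against 0.5 µM, 2 genes were higher at 1.5 µM, 1 was lower and 34 did not pass, where 4.66% of all genes were higher and 8.09% lower, 12.7% together. The median log2 difference was 0.0076 for the 37 genes and -9.0e-05 for all genes. The groups did not overlap for 13 of the 37 genes (5 above and 8 below), against 33.7% of all genes (15.4% above and 18.3% below). No member differed 2-fold, and 1.21% of all genes did. MKI67 averaged 28867 ± 499.8 normalized counts at 1.5 µM and 25008 ± 856 at 0.5 µM (SD, n = 3 each), a log2 difference of 0.21 ± 0.055 (SE, limma adjusted p = 0.0364). CENPF averaged 34298 ± 621 at 1.5 µM and 30491 ± 1382 at 0.5 µM, a difference of 0.17 ± 0.042 (SE, limma adjusted p = 0.0265). FOXM1 averaged 13775 ± 99.2 at 1.5 µM and 14626 ± 156 at 0.5 µM, a difference of -0.086 ± 0.025 (SE, limma adjusted p = 0.0476).

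These counts changed when single libraries were left out, in fits with fewer samples. Without 0.5 µM replicate 2, 9 genes were higher and 1 lower at 1.5 µM than at 0.5 µM, where all genes were 7.66% higher and 10.7% lower. Without 0.5 µM replicate 1 there were 1 and 0, where all genes were 3.24% higher and 6.28% lower. With any 1.5 µM library left out, none passed, where 1.37% to 2.26% of all genes were higher and 4.32% to 5.28% lower. The log2 difference in these fits was 0.20 to 0.22 for MKI67, 0.16 to 0.19 for CENPF and -0.090 to -0.080 for FOXM1. Without the 3 libraries high in H19 and SLC2A3, with only replicate 3 left at 1.5 µM, the median log2 difference of the 37 genes was -0.033. At an unadjusted p under 0.05 there were 9 of the 37 genes with all libraries (24.3%), against 28.7% of all genes. edgeR called 2 higher and 1 lower (all genes 4.80% higher and 8.24% lower), and DESeq2 2 higher and 2 lower (all genes 6.65% higher and 9.64% lower). No adjusted difference was found for UBE2C (-0.14 ± 0.049 (SE, limma adjusted p = 0.0939)) or ASPM (0.15 ± 0.055 (SE, limma adjusted p = 0.105)), although their groups did not overlap.

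The level of each member per transcript length (FPKM, the authors' values) spanned a wide range. In DMSO the highest was UBE2C with 264 ± 6.40 FPKM and the lowest CDC25C with 8.44 ± 0.56 (SD, n = 3 each), and the median over the 37 genes was 49.5 FPKM. UBE2C was followed by CKS2 with 187 ± 5.92 and CCNB1 with 136 ± 5.39 FPKM. At 1.5 µM CKS2 stood at 217 ± 3.86 FPKM and UBE2C at 199 ± 5.67. The genes that fell at 1.5 µM had a median level of 90.6 FPKM in DMSO (28.5 to 264), and those that rose 37.5 FPKM (8.44 to 187). Across the 37 genes the log2 fold change at 1.5 µM ran against the log2 level in DMSO, with a Pearson r of -0.60 and a Spearman rho of -0.60. Across 13677 coding genes the same measures were 0.038 and -0.0085. These points share the DMSO libraries on both axes, and genes are not independent replicates.

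**Figure D3:**
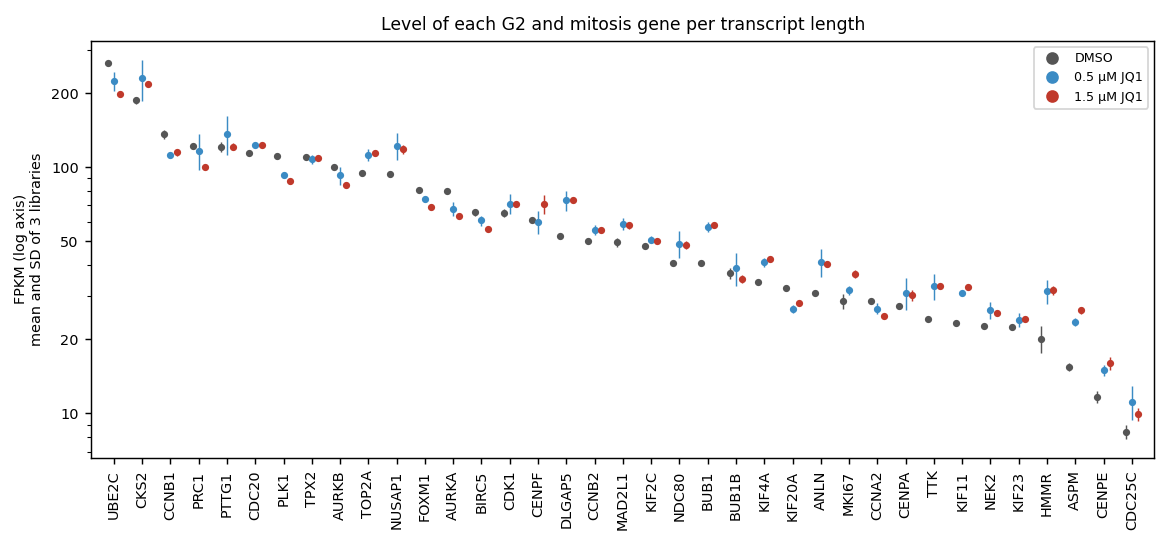
FPKM of each gene on a log axis as the mean and SD of 3 libraries, ordered by the level in DMSO, with DMSO in grey, 0.5 µM JQ1 in blue and 1.5 µM JQ1 in red. From UBE2C (264 in DMSO) to CDC25C (8.44), the shift with JQ1 is small beside the differences between genes, and the largest blue error bars are those of CKS2, PTTG1 and PRC1.

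The genes that rose and those that fell also differed in their transcripts. The longest coding transcripts (GENCODE release 29) of the genes that rose at 1.5 µM had a median length of 3339 nt and a G+C content of 41.1%, and those of the genes that fell 2479.5 nt and 49.2%. Over the 37 genes the Spearman rho between the log2 fold change at 1.5 µM and G+C content was -0.72 (Pearson r -0.67), and for length 0.47 (0.48). Over all 13677 coding genes tested the rho was -0.19 and 0.15 and the r -0.16 and 0.090. In G+C quartile 1 of the coding genes, the lowest, 14 of 15 members rose and 1 fell, with a median log2 fold change of 0.33, where all genes of that quartile had 0.15. In quartile 2, 8 of 14 members rose and 4 fell, with medians of 0.18 for the members and 0.044 for all genes. In quartile 3, 1 of 7 rose and 5 fell, with medians of -0.19 and -0.075. The only member in quartile 4 was CDC20, which rose. Over all genes tested, 36.9% were higher and 36.2% lower at 1.5 µM. These shares were not computed per quartile, so the counts of members cannot be set against those of their quartile.

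Length and G+C content also moved with differences inside a group. The difference of DMSO replicate 3 from replicate 1 had a rho of 0.74 with length over the 37 genes and 0.49 over all coding genes. Against replicate 1 of their own group, 0.5 µM replicate 2 had -0.37 and -0.25, 0.5 µM replicate 3 had 0.29 and 0.17, and 1.5 µM replicate 3 had 0.39 and 0.21. The difference between the doses had 0.58 and 0.26. With G+C content, DMSO replicate 3 against replicate 1 had a rho of -0.34 over the 37 genes and -0.18 over all coding genes. Against replicate 1 of their own group, 0.5 µM replicate 2 had -0.24 and -0.16 and 0.5 µM replicate 3 had 0.36 and 0.18. For 1.5 µM replicate 3 the values were -0.44 and -0.24, and for the difference between the doses -0.39 and -0.16. MKI67 and CENPF, the 2 members higher at 1.5 µM than at 0.5 µM, have the longest and the third longest of the 37 transcripts, 12678 and 10307 nt. After removing from each library what followed G+C content and length over all coding genes, an alternative added after seeing the data, 23 members were higher and 7 lower at 0.5 µM, and 25 higher and 8 lower at 1.5 µM. The 13677 coding genes were in the same fit 41.2% higher and 37.6% lower at 0.5 µM, and 43.1% higher and 39.2% lower at 1.5 µM. Between the doses 4 of the 37 members were then higher and none lower, where 11.5% higher and 11.6% lower were the shares of the coding genes. The 4 included MKI67 (0.12, adjusted p = 0.0455) and CENPF (0.094, adjusted p = 0.0327). ASPM had 0.56 and 0.64 in that fit at the 2 doses, and UBE2C -0.15 and -0.23. In that fit 15 members moved by over 1.5 times or turned at 0.5 µM and 14 at 1.5 µM, 18 in all. Of these, FOXM1 came to -0.025 and -0.078, MAD2L1 to 0.14 and 0.11, CENPE to 0.25 and 0.26, TOP2A to 0.15 and 0.18, CENPF to 0.0084 and 0.10, KIF23 to 0.069 and 0.11, and BIRC5 to -0.075 and -0.088. CDK1 came to 0.12 and 0.18, CKS2 to 0.18 and 0.20, CCNA2 to -0.13 and -0.19, and CENPA to 0.22 and 0.31. BUB1B and TPX2, which passed in neither fit, came to 0.01 and -0.088, and to -0.0063 and 0.037. The values of PLK1, AURKB, CDC20 and PTTG1 are given with those genes.

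**Figure D4:**
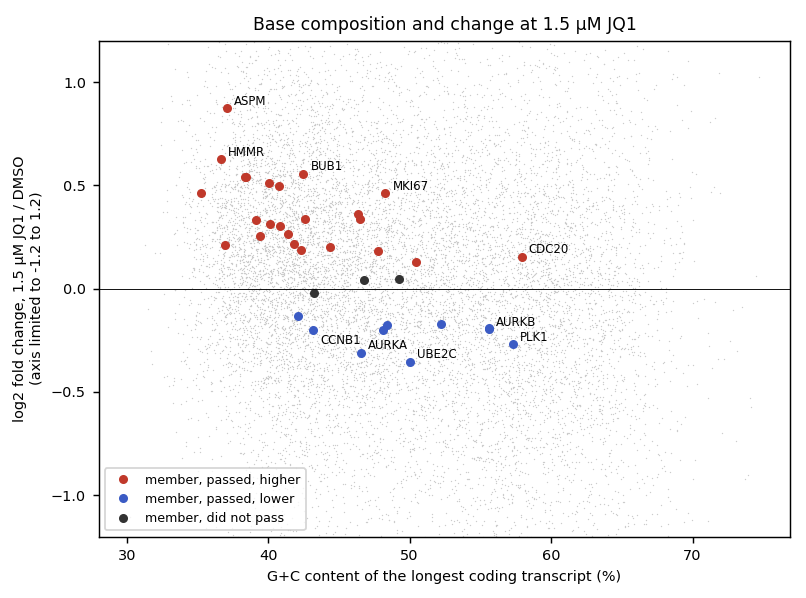
Log2 fold change at 1.5 µM JQ1 against DMSO by the G+C content of the longest coding transcript. Grey dots are all 13677 coding genes tested (those outside the axis limits are not shown), and large points the 37 genes, red for higher, blue for lower and black for those that did not pass. Members low in G+C, such as ASPM and HMMR, lie above 0, and PLK1, AURKB and UBE2C lie below it, with CDC20 an exception at high G+C.

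Other genes of the same processes, from lists that share no gene with the 37, also moved in both directions. The counts of each list at 1.5 µM stand beside 36.9% higher and 36.2% lower among all genes tested. At 1.5 µM, 9 of 18 further genes of CDK1 control and the G2 checkpoint rose and 4 fell. ENSA, an inhibitor of the phosphatase PP2A in mitosis, rose (0.53 ± 0.028 on the log2 scale), as did MASTL, the kinase that activates it (0.38 ± 0.077). PKMYT1, an inhibitory kinase of CDK1, fell (-0.63 ± 0.047), as did CDC25A (-0.57 ± 0.032), an activating phosphatase. Of the 18 APC/C genes, 8 rose and 5 fell. Of its subunits, ANAPC16 rose (0.72 ± 0.04) and CDC26 (-0.69 ± 0.084) and CDC23 (-0.46 ± 0.044) fell. The separase gene ESPL1 fell too (-0.45 ± 0.039).

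Of 29 further centromere and kinetochore genes, 16 rose and 6 fell at 1.5 µM. The kinetochore scaffold CASC5, now named KNL1, rose by 0.93 ± 0.06, the microtubule-binding SKA1 by 0.68 ± 0.04, and the centromere proteins CENPC and CENPN by 0.67 ± 0.062 and 0.60 ± 0.042. In the spindle checkpoint and passenger list 6 of 13 rose and 1 fell. The gene that fell was TRIP13 (-0.82 ± 0.056), the ATPase that takes checkpoint complexes apart, and SGOL2, a protector of centromeric cohesion now named SGO2, rose (0.64 ± 0.044), as did the checkpoint genes MAD1L1 (0.47 ± 0.037) and KNTC1 (0.40 ± 0.045). Of 19 cohesin and condensin genes 11 rose and 3 fell. The condensin subunits SMC4, NCAPH and NCAPG rose by 0.58 ± 0.057, 0.49 ± 0.037 and 0.38 ± 0.03, and the cohesin loader NIPBL by 0.50 ± 0.043.

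In the spindle and kinesin list 12 of 21 rose and 7 fell. HAUS3 (0.85 ± 0.036) and HAUS4 (0.61 ± 0.058), subunits of the augmin complex that branches microtubules, rose, as did the spindle proteins CKAP2 (0.61 ± 0.041) and CKAP2L (0.55 ± 0.064). Of 12 cytokinesis genes 7 rose and 2 fell. The nonmuscle myosins MYH10 and MYH9 rose by 0.77 ± 0.031 and 0.45 ± 0.056, the citron kinase CIT by 0.47 ± 0.05 and the kinesin KIF20B, which is in both lists, by 0.42 ± 0.05. Of 19 centrosome genes 11 rose and 2 fell. NEK9, a mitotic kinase, rose by 1.06 ± 0.029, and CEP192, TUBGCP5 and CEP63, proteins of the centrosome, by 0.95 ± 0.044, 0.81 ± 0.064 and 0.77 ± 0.081.

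The list of the DREAM and MYB-MuvB complexes, which act on promoters of this class, held more lower than higher genes at 1.5 µM, with 4 of 13 higher and 7 lower. Its median log2 fold change was -0.12 at 0.5 µM and -0.19 at 1.5 µM. LIN9, a MuvB subunit, fell by 0.71 ± 0.064, the repressor E2F4 by 0.57 ± 0.051 and its partner TFDP1 by 0.53 ± 0.029, while TFDP2 rose by 0.62 ± 0.057. Among 36 genes of DNA replication, the phase before G2, 16 rose and 14 fell, with a median of 0.025. The shares of all genes at 1.5 µM were 36.9% higher and 36.2% lower. POLE2, MCM2 and MCM5 fell by 1.00 ± 0.11, 0.71 ± 0.044 and 0.66 ± 0.035, and POLE, the catalytic subunit of the same polymerase as POLE2, rose by 0.62 ± 0.034. The named genes of these lists were chosen from those that passed limma's test at 1.5 µM, so their adjusted p (0.00108 or less) only describes that choice. Their libraries did not overlap with DMSO, which held for 81.7% of all genes at 1.5 µM. At 0.5 µM the counts of higher and lower genes were 9 and 3 for CDK1 control, 6 and 6 for the APC/C, 18 and 2 for the kinetochore and 7 and 1 for the checkpoint list. They were 11 and 4 for cohesin and condensin, 12 and 6 for the spindle and 7 and 2 for cytokinesis. For the centrosome they were 12 and 1, for DREAM 4 and 6 and for replication 13 and 12. Among all genes 35.3% were higher and 34.7% lower at 0.5 µM.

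**Figure D5:**
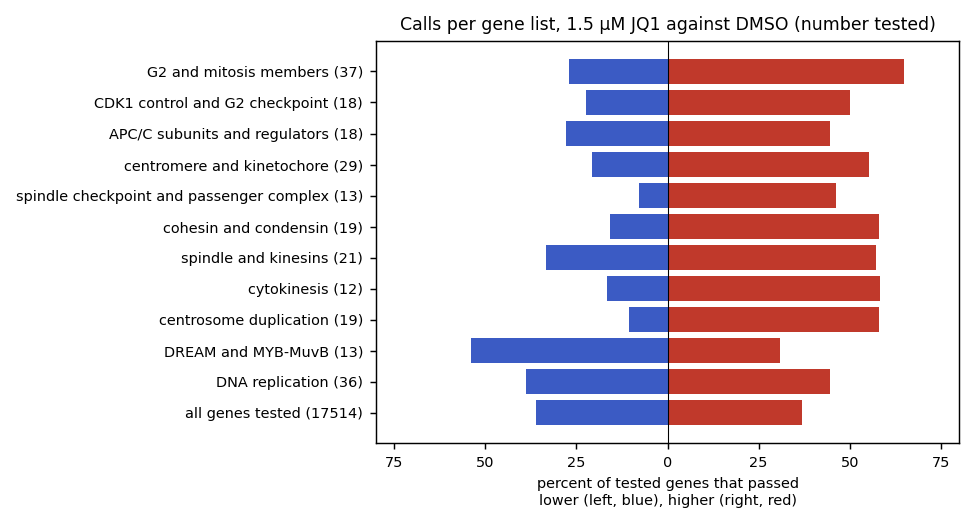
Percent of tested genes that passed at 1.5 µM JQ1 against DMSO, lower to the left in blue and higher to the right in red, for the 37 members, 10 other lists and all genes tested, with the number tested in brackets. The DREAM and MYB-MuvB list has more lower than higher genes (7 and 4), and the other 10 sets above the bottom bar have more higher than lower genes.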

How the data were processed

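Libraries of total RNA were made with a stranded kit, per the labels' protocols. Reads were trimmed, aligned and quantified with cutadapt, STAR and RSEM on hg19, per the submitters' processing notes, with versions, settings and annotation release not given in the sources used here. The deposited main table holds a normalized signal, gene counts that the authors divided by 1 DESeq2 size factor per library. Undoing 1 factor per library gave whole reads for 100% of its values (tolerance 0.001), with 60721187 to 88482001 reads per library. The authors also deposited FPKM values, scaled for transcript length and library size, for 57820 genes. No file held columns of other samples (0). Between replicates, chi-square over its degrees of freedom was 3.41 to 31.2, above counting error. Counts carry no spike-in, so a change is set against the bulk of genes, and genes that overlap others are uncertain.

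The test was that of limma 3.58.1 (R 4.3.3), with the trend option, on values as log2(normalized count + 1). A single fit took all 9 libraries and the 17514 genes with at least 10 normalized counts in at least 3 libraries. All 37 members passed this filter, with at least 965 reads in every library. Two-sided p values were adjusted (Benjamini-Hochberg) over all genes tested, per comparison, at a threshold of 0.05. No test was made over the list of members. Count tests on the recovered reads called 6190 genes higher and 6050 lower at 0.5 µM, 6478 and 6419 at 1.5 µM and 840 and 1443 between the doses with edgeR 4.0.16, and DESeq2 1.42.0 was run as well. The script was also run on simulated data with far fewer changed genes than here and with the spread of the DMSO libraries. That run does not test it under the conditions of these data.

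The members and the other lists were chosen with earlier results of these data known. All members are named. Of each other list, up to 4 genes are named, those past the test at 1.5 µM with a mean of at least 100 normalized counts and the largest changes. NEUROD1 and HEXIM1 are checks, and H19, SLC2A3 and the cell type markers are named for the same purpose. Lengths and base composition are of the longest coding transcript in GENCODE release 29, matched by Ensembl ID. Positions of genes in the files' build were not used here. Protein sequences were not analysed here.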

Additional observations from a re-analysis of the deposited data

How the results depend on the processing

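The 21 alternatives per comparison were pseudocounts of 0.1 and 5, a minimum of 50 or none, FPKM values, scaling by TMM or upper quartile, limma with library weights or with no trend, edgeR, DESeq2, only the 6 libraries compared, a replicate block, leaving out each library or the 3 with H19 and SLC2A3, and the correction for G+C content and length, which was added after seeing the data. All alternatives gave the same side of the threshold and sign for 21 of 37 members at 0.5 µM, for 24 at 1.5 µM and for 0 of the 3 called between the doses. Of the values of single members that kept their sign, 20 gained and 14 lost a call at 0.5 µM. At 1.5 µM 1 gained and 23 lost one, and between the doses 25 of 63 lost one. Not counted there, CENPF at 0.5 µM on FPKM values and AURKB at 1.5 µM with the G+C and length correction lost their calls with a turned sign. The sign turned at 0.5 µM for TPX2 (FPKM -0.030, upper quartile -0.042, weights -0.018, without 0.5 µM replicate 2 -0.021, G+C and length -0.0063), BUB1B (weights -0.029, without 0.5 µM replicate 2 -0.031), AURKB (G+C and length 0.058) and CENPF (FPKM -0.024), and at 1.5 µM for TPX2 (FPKM -0.017, upper quartile -0.0068), AURKB (G+C and length 0.034), BUB1B (without 1.5 µM replicate 1, 0.0095) and PTTG1 (upper quartile -0.0044). With a library left out, TPX2 ranged from -0.021 to 0.035 and BUB1B from -0.031 to 0.14 at 0.5 µM, and BUB1B from -0.051 to 0.0095 at 1.5 µM. The counts of higher and lower members at either dose stayed within 1.5 times. The median at 1.5 µM was 0.146 on FPKM values, 0.159 with upper-quartile scaling, 0.182 with the G+C and length correction and 0.195 to 0.219 with a library left out. Upper-quartile scaling moved the median of all genes to -0.064 at 0.5 µM and -0.054 at 1.5 µM, and FPKM values moved it to -0.044 and -0.055. Between the doses, the numbers of higher and lower members were 0 and 0 on FPKM values, without trend and without the 3 libraries, 13 and 2 with library weights, 2 and 2 with DESeq2, 4 and 0 with the G+C and length correction, and 0 to 9 and 0 to 1 with a library left out. Upper-quartile scaling and the fit to 6 libraries left 0 lower, where 8.08% and 4.11% of all genes were lower. The median between the doses was -0.013 on FPKM values, 0.054 with weights, -0.033 without the 3 libraries, 0.034 with the G+C and length correction and -0.028 to 0.065 with a library left out. The cause of these changes was not tested, though fits without libraries have fewer samples. The fit without the 3 libraries with H19 and SLC2A3 had only replicate 3 at 1.5 µM. Its calls are part of the counts of calls kept, gained and lost above. Samples with the same replicate number did not deviate together (correlations of -0.385 to 0.131). Other differences between libraries could hide a shared batch, so this cannot exclude that the numbers pair samples. With the replicate block 24 members were higher and 7 lower at 0.5 µM (all genes 35.4% and 35.0%). At 1.5 µM there were 24 and 10 (all genes 37.0% and 36.4%), and between the doses 3 and 0 (all genes 4.33% and 7.26%). Depth did not limit the members, the lowest of which had 965 reads.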
